A study of Homo sapiens with 6 samples.

Results

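A set of 10 genes of the contractile actin cytoskeleton and of the YAP and SRF target set was followed in U2OS cells depleted of E4F1. They were ACTA2, ACTG2, TAGLN, CNN1, MYL9, TPM1, TPM2, CCN1, CCN2 and ANKRD1, which are 10 of 58219 gene identifiers in the tables. They are taken by name from known contractile genes and targets, and the choice was made with earlier results of these data known, so their counts are a description. CCN1 and CCN2 are listed as CYR61 and CTGF in the gene annotation used here.

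E4F1 is a zinc finger transcription factor, and U2OS is a human osteosarcoma cell line. One group of 3 libraries came from U2OS cells that received an shRNA against E4F1, and its control group of 3 came from U2OS cells that received a scramble shRNA. Both groups were grown in DMEM with serum, exposed to the shRNA vector for 24 h and kept in puromycin for another 48 h, and RNA was taken at 72 h. The labels give 3 independent pools per group and 1 cell line. Neither the number of hairpins nor the handling of pools with equal numbers is stated in the labels.

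Serum response factor (SRF) binds a promoter element called the CArG box and works with cofactors of the MRTF family, which enter the nucleus when free actin monomers are used up by filament assembly. YAP and its relative TAZ (gene WWTR1) are coactivators of the TEAD factors, and they are held back by the LATS kinases of the Hippo pathway. Both routes answer to actin tension, and CCN1, CCN2 and ANKRD1 are widely used as their readouts in adherent cells.

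Promoter windows of 4 genes are shown because they carry the motifs that give the set its name. Each runs from 250 bases before to 50 bases after a RefSeq transcription start (GRCh38.p14) and is written 5′ to 3′. Capitals mark 10-base CArG-like boxes, which are CArG boxes with at most 1 G or C in their central 6 bases, and the TEAD core GGAATG. Both were searched on both strands, and the 2 kinds of match did not overlap in these windows.

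ACTA2, inner start (chr10:88952724-88953023, minus strand): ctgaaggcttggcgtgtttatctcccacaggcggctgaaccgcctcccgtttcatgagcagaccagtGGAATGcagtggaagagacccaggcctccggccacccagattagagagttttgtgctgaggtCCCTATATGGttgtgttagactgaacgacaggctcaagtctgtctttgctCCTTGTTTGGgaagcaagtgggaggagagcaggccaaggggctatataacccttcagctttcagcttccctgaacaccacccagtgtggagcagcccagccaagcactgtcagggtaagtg
ACTG2 (chr2:73892758-73893057, plus strand): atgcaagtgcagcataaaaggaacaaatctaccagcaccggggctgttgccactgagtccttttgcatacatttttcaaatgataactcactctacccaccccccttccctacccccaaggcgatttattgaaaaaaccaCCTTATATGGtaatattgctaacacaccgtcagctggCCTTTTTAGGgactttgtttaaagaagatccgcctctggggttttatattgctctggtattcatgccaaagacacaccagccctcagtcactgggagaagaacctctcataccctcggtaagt
CCN2 (chr6:131951323-131951622, minus strand): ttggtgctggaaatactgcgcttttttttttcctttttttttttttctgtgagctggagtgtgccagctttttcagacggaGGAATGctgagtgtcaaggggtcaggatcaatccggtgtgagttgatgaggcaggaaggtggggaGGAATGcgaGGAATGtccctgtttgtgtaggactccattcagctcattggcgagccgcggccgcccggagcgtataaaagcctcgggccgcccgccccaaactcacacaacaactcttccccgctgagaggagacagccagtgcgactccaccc
ANKRD1 (chr10:90921038-90921337, minus strand): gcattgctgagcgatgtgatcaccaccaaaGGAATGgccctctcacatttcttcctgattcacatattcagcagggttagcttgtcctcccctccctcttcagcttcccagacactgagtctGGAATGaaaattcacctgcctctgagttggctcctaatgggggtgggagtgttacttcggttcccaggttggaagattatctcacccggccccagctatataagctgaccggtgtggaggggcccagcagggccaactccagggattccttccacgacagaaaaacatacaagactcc

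Of the 10 genes, 7 had a promoter window in the RefSeq table. The inner ACTA2 window held CArG-like boxes at −121 to −112 and at −71 to −62 and a TEAD core at −183 to −178. The ACTG2 window held 2 boxes of the strict CArG form, at −110 to −101 and at −73 to −64. CCN2 had TEAD cores starting at −169, −104 and −95, and ANKRD1 had them starting at −220 and −128. Neither motif was found in the windows of CNN1, TPM1 and TPM2, nor at the outer ACTA2 start. Over all 35116 windows of the same length, 8.13% held a CArG-like box, 1.29% a strict one, 14.03% at least 1 TEAD core and 0.128% at least 3. The counts cannot be split between the starts of ACTA2. The run TGACGTA, the core of ATF-like sites that E4F1 is known to bind, was searched on both strands as well and was in none of the windows of the 7 genes, beside 1.39% of all windows.

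**Figure D1:**
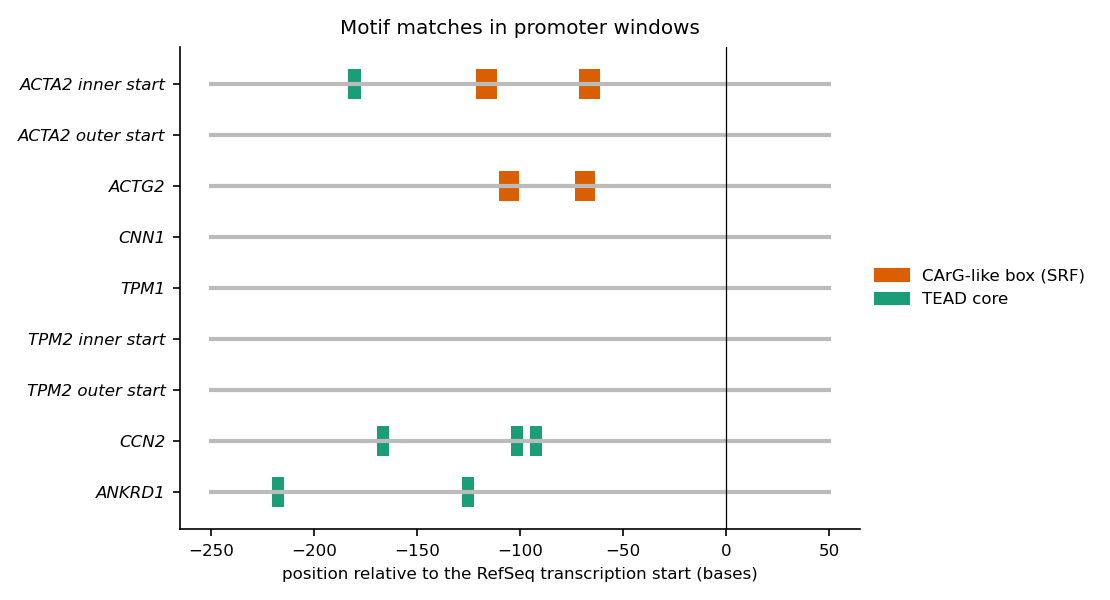
Positions of motif matches in the 9 promoter windows of 7 genes, in bases from the RefSeq transcription start, with CArG-like boxes in orange and TEAD cores in green. CCN2 and ANKRD1 carry TEAD cores without a CArG-like box, ACTG2 carries 2 boxes without a TEAD core, and the inner ACTA2 window carries both.

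Reads in genes numbered 16159934 to 16892139 in the E4F1 shRNA libraries and 14947085 to 16284450 in the control shRNA libraries. The E4F1 transcript was at 2.5 to 3.18 CPM in the E4F1 shRNA libraries and at 15.6 to 19.1 CPM in the control shRNA libraries (edgeR adjusted p = 7.65e-10). CPM is the read count of a gene scaled to a common library size, with TMM factors. Osteoblast markers were present in part: RUNX2 had 427 to 455 reads in E4F1 shRNA and 435 to 536 reads in control shRNA libraries. COL1A1 had at least 16707 reads in any library, while SP7 and BGLAP had 0 to 3. COL1A2 had 4 to 16 reads in E4F1 shRNA and 9 to 14 in control shRNA libraries. The 7 osteoblast markers summed to 1126 to 1207 CPM in E4F1 shRNA and 1279 to 1369 CPM in control shRNA libraries. Of the 5 tested, 2 were called lower, beside 14.4% of all genes tested. These were COL1A1 (log2 −0.16), which lost its call in 5 of 15 alternative fits, and SPP1 (−0.43), which lost it in 3, DESeq2 included (adjusted p = 0.113), and changed sign in another. Of 7 smooth muscle markers, MYH11, DES, LMOD1 and KCNMB1 had at most 7 reads in any library. The list summed to 78.0 to 88.6 CPM in E4F1 shRNA and 84.9 to 108 CPM in control shRNA libraries, mainly from SMTN, and none of its 2 tested genes was called. Endothelial markers summed to 3.74 to 3.90 CPM in E4F1 shRNA and 3.59 to 4.27 CPM in control shRNA libraries, and blood markers to 1.48 to 3.05 CPM in E4F1 shRNA and 2.14 to 2.72 CPM in control shRNA libraries, with 2 of the 7 blood markers at 0. Epithelial markers, mostly the keratins KRT8 and KRT18, summed to 740 to 773 CPM in E4F1 shRNA and 712 to 783 CPM in control shRNA libraries. Of the 5 tested, EPCAM was called higher (log2 0.43), and CLDN4 (−0.49) and CDH1 (−0.41) were called lower. These calls stand beside 14.4% of all genes tested in each direction. EPCAM lost its call in 5, CLDN4 in 3 and CDH1 in 9 of 15 alternative fits. DESeq2 was among those fits for EPCAM (adjusted p = 0.065) and CDH1 (adjusted p = 0.092). What part these cell type genes have in the results was not tested.

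Most of the 10 genes were lower in E4F1 shRNA cells. Of the 10, 9 passed the filter on low counts, and 7 of these fell, 1 rose and 1 did not pass the test (edgeR quasi-likelihood test, Benjamini-Hochberg adjusted p under 0.05 over 15765 genes). Over all genes tested 14.4% fell and 14.4% rose, 28.9% in all. The median log2 fold change, E4F1 shRNA over control shRNA, was −0.28 over the 9 genes and −0.0096 over all genes tested. For 8 of the 9 every E4F1 shRNA library lay below every control shRNA library, against 21.1% of all genes tested, and for TPM1 every one lay above, against 20.7% (41.8% for either direction). In bulk RNA, fewer cells that express a gene and less RNA per cell cannot be told apart.

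**Figure D2:**
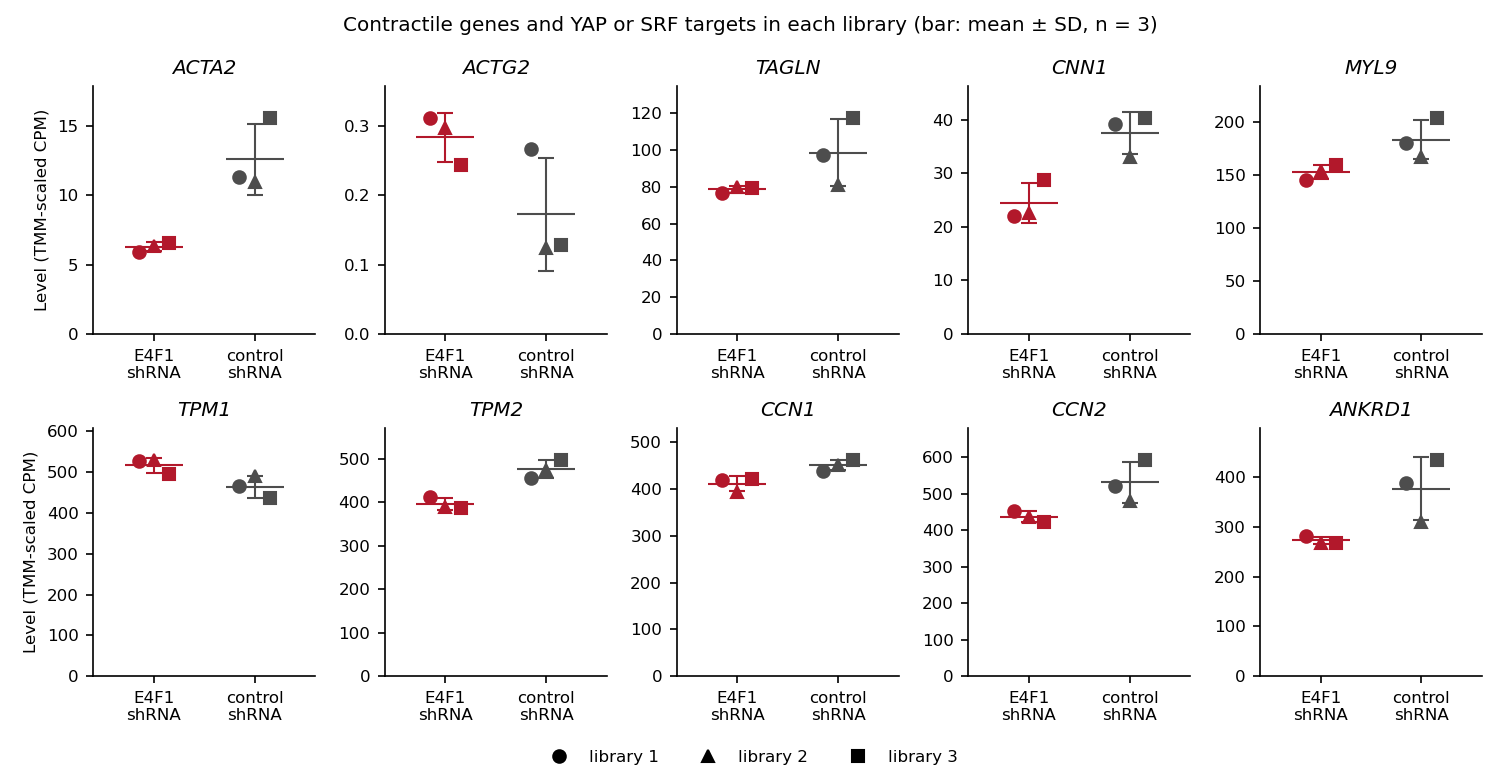
Level of each of the 10 genes (TMM-scaled CPM, axes from 0) in the 3 E4F1 shRNA libraries (red, left) and the 3 control shRNA libraries (grey, right), with mean and SD. ACTA2 lay at 5.92 to 6.58 CPM in E4F1 shRNA and 10.9 to 15.5 CPM in control shRNA libraries, TPM1 was the tested gene with higher E4F1 shRNA values, and ACTG2 stayed under 0.32 CPM throughout.

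Among the muscle-type actins only ACTA2 passed the filter on low counts. ACTA2, alpha smooth muscle actin (ENSG00000107796.13, GRCh38 chromosome 10, 88935074 to 88991339, minus strand), had 95, 107 and 108 reads in E4F1 shRNA libraries and 169, 177 and 242 reads in control shRNA libraries. Its level was 6.28 ± 0.337 CPM in E4F1 shRNA cells and 12.6 ± 2.56 CPM in control shRNA cells (SD, n = 3 each). That is 2.0-fold lower, with a log2 fold change of −1.0 and an SE of 0.14 (edgeR adjusted p = 5.76e-05), the largest change of the 9 tested genes. The groups were far apart, and control library 3 stood above the other controls.

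ACTA2 is overlapped on the opposite strand by exons of FAS and of the antisense gene ACTA2-AS1, and strand was used in the counting. TAGLN, TPM1 and CCN2 also share exon positions with a gene on the other strand. ACTG2, gamma smooth muscle actin (ENSG00000163017.13, chromosome 2, 73892314 to 73919865, plus strand), had 4 or 5 reads in each E4F1 shRNA library and 2 to 4 reads in each control shRNA library. At this depth no difference in ACTG2 was detectable, although its window holds the strict boxes printed above. The other muscle actins were as low, with 1 to 2 reads of ACTA1 and 4 to 6 of ACTC1 in E4F1 shRNA libraries and 2 to 4 and 8 to 13 reads in control shRNA libraries. Actin transcripts are alike in sequence, so the split of reads among them is uncertain, and this holds for the tropomyosins too.

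Per kilobase of annotated exon, ACTA2 made up a small part of the actin transcripts. It stood at 2.11 CPM per kilobase in E4F1 shRNA cells and 4.23 in control shRNA cells, while cytoplasmic beta-actin, ACTB, had 1064 in E4F1 shRNA and 1112 in control shRNA cells. ACTB had log2 −0.06 (SE 0.06, edgeR adjusted p = 0.425) and gamma-actin, ACTG1, 0.12 (SE 0.06, edgeR adjusted p = 0.123). The ACTA2 share of actin transcripts per kilobase was 0.140 ± 0.0085% in E4F1 shRNA and 0.277 ± 0.0571% in control shRNA libraries (SD, n = 3 each).

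CNN1 and TAGLN, actin-binding proteins of smooth muscle, were both lower after E4F1 depletion, by different amounts. CNN1, basic calponin (ENSG00000130176.7, chromosome 19, 11538717 to 11550323, plus strand), was at 22.04, 22.5 and 28.7 CPM in E4F1 shRNA libraries and at 39.2, 33.0 and 40.2 CPM in control shRNA libraries. The highest E4F1 shRNA library stayed below the lowest control. Its log2 fold change came to −0.62, SE 0.10 (edgeR adjusted p = 0.000232). TAGLN, transgelin or SM22-alpha (ENSG00000149591.16, chromosome 11, 117199321 to 117204782, plus strand), was at 76.7, 79.7 and 79.7 CPM in E4F1 shRNA libraries and at 97.6, 81.0 and 117 CPM in control shRNA libraries.

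Control library 2 for TAGLN lay next to the E4F1 shRNA libraries, while the other controls were well above. On the log2 scale TAGLN had −0.33, SE 0.09 (edgeR adjusted p = 0.0135). It was −0.18 without control library 3 (edgeR adjusted p = 0.0783), and leaving out control library 1 (0.0539), or the E4F1 shRNA pool 1 (0.0575) or pool 2 (0.0542), also ended the call. Paralogues did not share one direction. Calponin CNN3 rose (log2 0.18, edgeR adjusted p = 0.0124), CNN2 had 0.08 (edgeR adjusted p = 0.304) and TAGLN2 fell (−0.23, edgeR adjusted p = 0.00249). The call of CNN3 was lost without E4F1 shRNA library 2 (edgeR adjusted p = 0.0552).

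MYL9, a regulatory light chain of smooth and nonmuscle myosin II (ENSG00000101335.9, chromosome 20, 36541484 to 36551447, plus strand), fell. It was at 146, 154 and 160 CPM in E4F1 shRNA libraries and at 180, 167 and 204 CPM in control shRNA libraries, with no overlap. The log2 fold change came to −0.26, SE 0.07 (edgeR adjusted p = 0.00657). Of the other myosin II chains, MYL12B (log2 −0.18), MYL6B (−0.19) and the heavy chain gene MYH14 (−0.34) fell and the heavy chain gene MYH10 rose (0.36). MYH9, the most abundant of the 3 heavy chain genes per kilobase, had −0.02 (edgeR adjusted p = 0.859), MYL6 had −0.07 and MYL12A −0.13. MYL12B lost its call in 4 and MYL6B in 4 of the 6 fits that left out 1 library. MYL6B also lost it with DESeq2 (adjusted p = 0.0671), without the low-count filter (edgeR adjusted p = 0.093) and with counts ignoring strand (edgeR adjusted p = 0.056).

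Tropomyosins, which lie along actin filaments and set which proteins reach them, went both ways. TPM2 (ENSG00000198467.13, chromosome 9, 35681992 to 35690121, minus strand) was at 412, 390 and 388 CPM in E4F1 shRNA libraries and at 456, 475 and 497 CPM in control shRNA libraries. Its log2 fold change came to −0.26, SE 0.05 (edgeR adjusted p = 0.0013). TPM1 (ENSG00000140416.19, chromosome 15, 63042632 to 63071915, plus strand) was at 527, 529 and 496 CPM in E4F1 shRNA libraries and at 467, 490 and 436 CPM in control shRNA libraries. Both genes separated the groups, in opposite directions.

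The rise of TPM1 was small, log2 0.16 (SE 0.06, edgeR adjusted p = 0.043). It lost its call with counts that ignore strand (edgeR adjusted p = 0.11). Leaving out control library 1 (0.0783), control library 3 (0.194), or the E4F1 shRNA pool 1 (0.113) or pool 2 (0.146), ended it too. TPM4 rose to 267 ± 13.2 CPM in E4F1 shRNA cells against 197 ± 5.87 CPM in control shRNA cells (SD, n = 3 each; log2 0.43, edgeR adjusted p = 1.7e-05), and TPM3 had −0.01. Per kilobase, TPM2 held 48.1 ± 0.977% of tropomyosin transcripts in E4F1 shRNA and 55.0 ± 1.13% in control shRNA libraries (SD, n = 3 each). For TPM4 the share was 12.2 ± 0.138% in E4F1 shRNA and 8.57 ± 0.0146% in control shRNA libraries. These shares rest on the summed exons of all annotated isoforms, 12876 bases for TPM1.

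**Figure D3:**
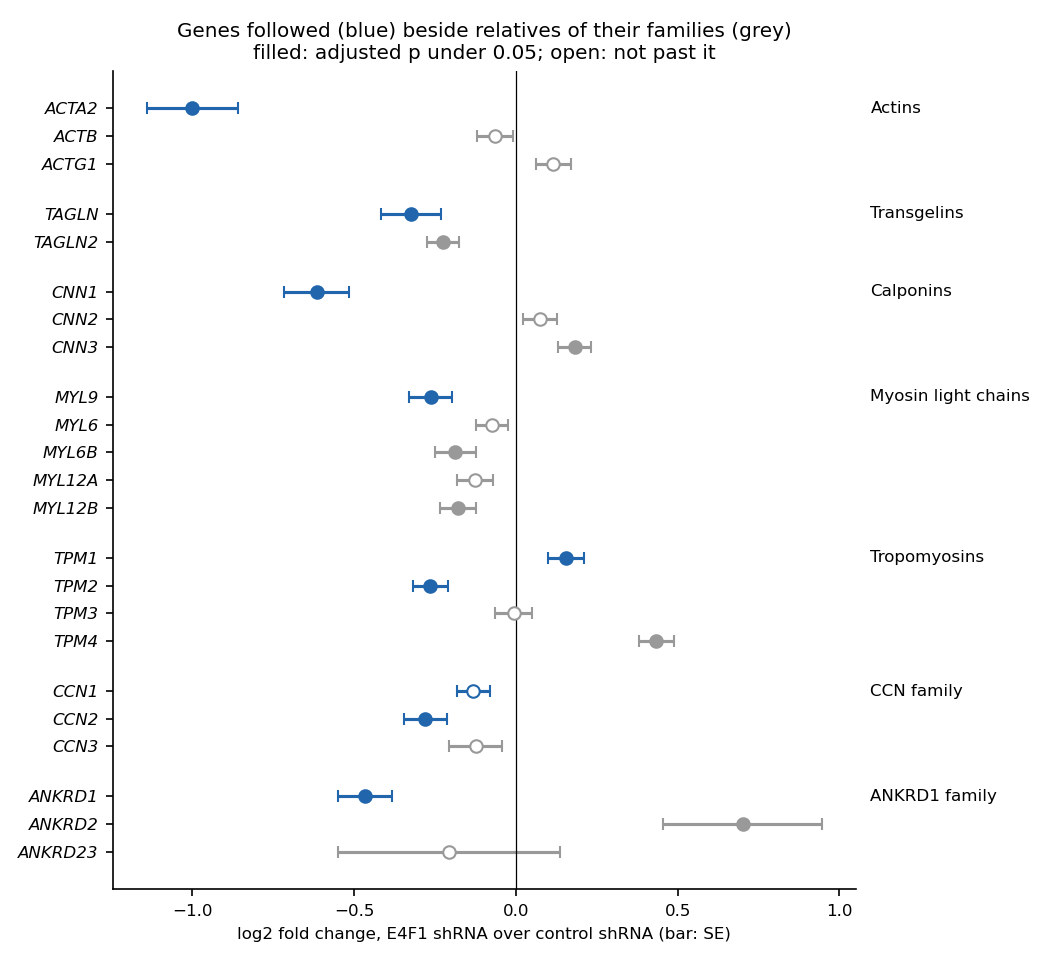
Log2 fold changes (E4F1 shRNA over control shRNA) with SE of the 9 tested genes in blue beside family relatives in grey, with filled points for adjusted p under 0.05. ACTA2 at −1.0 and CNN1 at −0.62 lie below 0 and below their paralogues, and the tropomyosins spread from TPM2 at −0.26 to TPM4 at 0.43.

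CCN1 and CCN2 code for secreted matricellular proteins and ANKRD1 for a nuclear ankyrin repeat protein of muscle and of stretched cells. Transcripts of all 3 were at 268 CPM or more in every library. ANKRD1 (ENSG00000148677.6, chromosome 10, 90912096 to 90921276, minus strand) was at 282, 268 and 268 CPM in E4F1 shRNA libraries and at 388, 309 and 434 CPM in control shRNA libraries. The control libraries spread over a 1.404-fold range and the E4F1 shRNA libraries over 1.049-fold, with no overlap. Its log2 fold change came to −0.47, SE 0.08 (edgeR adjusted p = 0.000612).

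CCN2, connective tissue growth factor (ENSG00000118523.5, chromosome 6, 131948176 to 131951373, minus strand), was at 453, 436 and 422 CPM in E4F1 shRNA libraries and at 522, 479 and 592 CPM in control shRNA libraries. It fell by 0.28 on the log2 scale (SE 0.07, edgeR adjusted p = 0.00424). CCN1, a ligand of integrins (ENSG00000142871.16, chromosome 1, 85580761 to 85583962, plus strand), was at 421, 393 and 422 CPM in E4F1 shRNA libraries and at 440, 452 and 462 CPM in control shRNA libraries. The groups of CCN1 did not overlap, but its log2 fold change of −0.13 did not pass the test (95% interval −0.24 to −0.02, edgeR adjusted p = 0.0654).

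Of their relatives, CCN3 had log2 −0.12 (edgeR adjusted p = 0.279) and CCN4 −0.15 (0.73), while CCN5 and CCN6 had at most 7 reads in any library. ANKRD2 had few reads, 30 to 39 in E4F1 shRNA and 15 to 24 in control shRNA libraries and was called higher (log2 0.70, edgeR adjusted p = 0.0404). That call was lost with DESeq2 (adjusted p = 0.126) and in 5 of the 6 fits without 1 library. ANKRD23 had −0.21 (edgeR adjusted p = 0.694).

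Per kilobase of exon, the level ran in the order CCN2, CCN1, ANKRD1, TPM2, MYL9, TPM1, TAGLN, CNN1, ACTA2 and ACTG2 in E4F1 shRNA cells, from 187 down to 0.0745 CPM per kilobase. CCN2 stood at 187 in E4F1 shRNA and 227 in control shRNA cells, CCN1 at 168 in E4F1 shRNA and 184 in control shRNA cells, and ANKRD1 at 138 in E4F1 shRNA and 191 in control shRNA cells. No neighbours in that order overlapped in the E4F1 shRNA libraries, whereas ANKRD1 overlapped both CCN genes in the control shRNA libraries. TPM2 was at 122 in E4F1 shRNA and 147 in control shRNA cells, and MYL9 at 54.2 in E4F1 shRNA and 65.1 in control shRNA cells. TPM1 stood at 40.2 in E4F1 shRNA and 36.1 in control shRNA cells, and TAGLN at 20.1 in E4F1 shRNA and 25.2 in control shRNA cells. CNN1 was at 8.46 in E4F1 shRNA and 13.0 in control shRNA cells, below TAGLN and above ACTA2. The order rests on the summed exons of all annotated isoforms, 12876 bases for TPM1, 3248 for TPM2 and 2821 for MYL9. Before division by length, TPM1 was at 517 CPM, TPM2 at 396 CPM and MYL9 at 153 CPM in E4F1 shRNA cells. The place of TPM1 below TPM2 and MYL9 therefore depends on the length used.

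Control libraries differed among themselves more than E4F1 shRNA libraries did, in 6 of the 7 genes that fell by their coefficient of variation, against 57.3% of all genes tested. In all 7, control library 3 was the highest control, and in 6 control library 2 was the lowest. This order was counted for these 7 genes only, not over all genes tested. A cell cycle score, the mean log2 CPM of 32 replication and mitosis genes relative to the 6 libraries, ran the other way. It was 0.187, 0.194 and 0.075 in the E4F1 shRNA libraries and −0.185, 0.038 and −0.309 in control libraries 1, 2 and 3. Control library 3 was thus the lowest in score and control library 2 the highest of the controls.

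With this score as a covariate none of the 9 genes passed the edgeR test, and the count over all genes came to 785. ACTA2 had log2 −0.59 in that fit (edgeR adjusted p = 0.0823), TPM2 −0.24 (0.0769), CNN1 −0.27 (0.244), ANKRD1 −0.08 (0.673), CCN2 −0.07 (0.71) and MYL9 −0.02 (0.926). TAGLN had 0.10 (0.62) and TPM1 0.0046 (0.985). The score itself separated the groups, so in 6 libraries its part and that of the shRNA cannot be told apart.

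**Figure D4:**
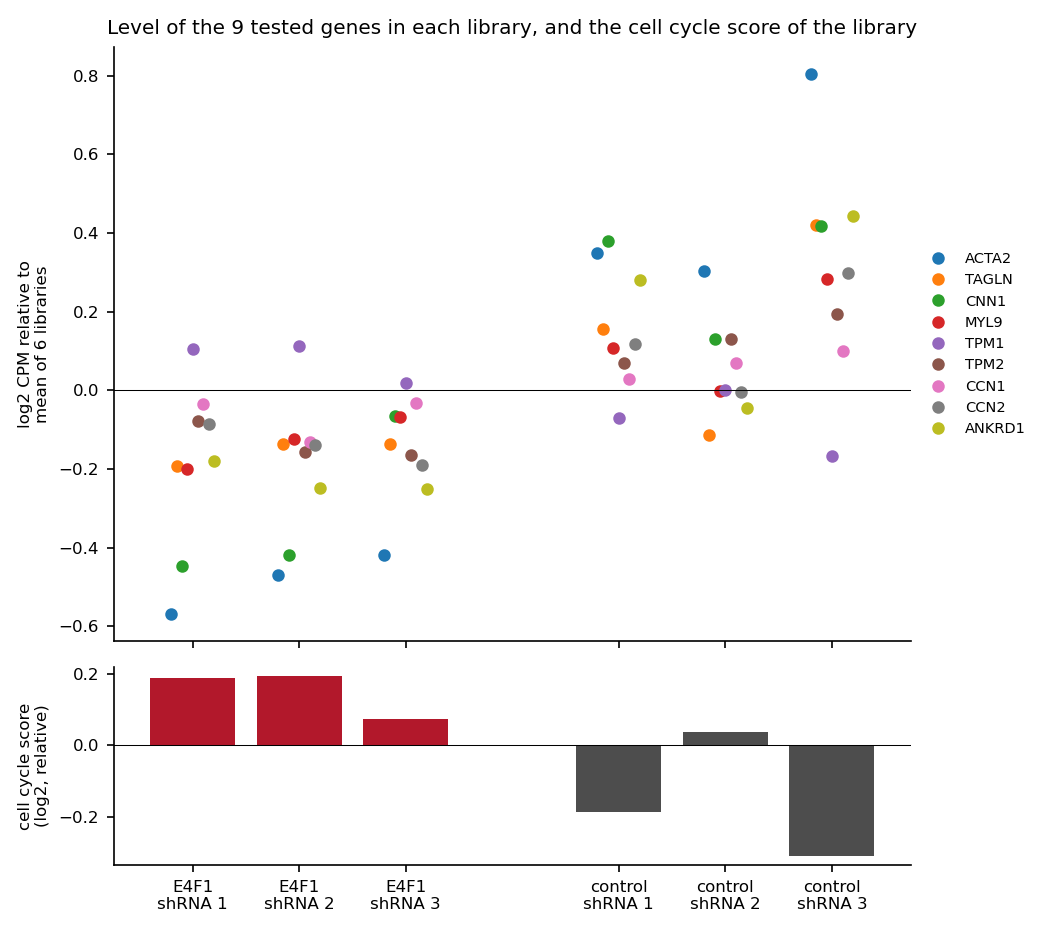
Log2 CPM of the 9 tested genes in each library, relative to the gene's mean over 6 libraries (top), and the cell cycle score of each library (bottom). Control library 3, with a score of −0.309, has the highest control values of the 7 genes that fell, and control library 2, with a score of 0.038, lies nearest to the E4F1 shRNA libraries for most of them.

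Other targets of YAP went lower more often than higher. In a list of 19 further YAP targets 17 were tested, of which 8 fell and 1 rose, with a median log2 fold change of −0.13. These counts stand beside 14.4% of all genes tested in each direction. FJX1, whose relative in fly is a Golgi kinase, was at 42.3 ± 2.57 CPM in E4F1 shRNA and 56.2 ± 3.53 CPM in control shRNA cells (SD, n = 3 each; log2 −0.41). Tissue factor, F3, had −0.54 and CCDC80, a matrix protein gene, −0.28. The phosphatase gene PTPN14, which restrains YAP, rose (0.34), although not in DESeq2 (adjusted p = 0.0559). PTPN14 is also counted in the list of Hippo pathway genes below, so these lists are not separate sets. Leaving out control library 1 left 4 of these targets lower in place of 8, and control library 3 left 3. The same step left 4 for the E4F1 shRNA pool 1 and 3 for pool 2. Over all genes tested, 2276 of 15765 fell in the main fit. Without control library 1 this was 1619 of 16103, and without control library 3 it was 1503 of 16085. Without the E4F1 shRNA pool 1 it was 1419 of 16138, and without pool 2 it was 1426 of 16155.

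Hippo pathway genes were called in both directions, 7 of 29 higher and 7 lower with a median of 0.05, beside 14.4% of all genes tested in each direction. YAP1 had log2 −0.04 (edgeR adjusted p = 0.664) and WWTR1 0.12 (edgeR adjusted p = 0.229), with overlapping groups for both. TEAD1 rose to 468 ± 18.5 CPM in E4F1 shRNA cells, against 341 ± 16.98 CPM in control shRNA cells (SD, n = 3 each; log2 0.46, edgeR adjusted p = 1.16e-05). TEAD2 also rose (0.23), while TEAD3 and TEAD4 fell (−0.26 each). The kinase gene LATS1 rose (0.57) and so did AMOT (0.44), whose product binds YAP, while the FERM domain gene FRMD6 fell (−0.37). TEAD2 lost its call with counts ignoring strand (edgeR adjusted p = 0.0765), and when control library 3 (0.0923) or the E4F1 shRNA pool 2 (0.083) was left out.

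SRF and its partners showed no single direction. SRF had log2 −0.04 (edgeR adjusted p = 0.72) and MRTFA −0.16 (edgeR adjusted p = 0.0731), while MRTFB rose (0.32, edgeR adjusted p = 0.00155). Reads of MYOCD, the muscle cofactor of SRF, numbered 20, 17 and 6 in E4F1 shRNA and 3, 7 and 2 in control shRNA libraries, and did not pass the filter. Of 12 tested genes of this list 2 rose and 4 fell, beside 14.4% of all genes tested in each direction, so the share that rose was near that of all genes. Among the called ones were PHACTR2 (0.33), a family member of actin-binding phosphatase regulators, the ternary complex factor gene ELK3 (−0.35) and the LIM protein gene FHL2 (−0.25). Leaving out control library 1, or the E4F1 shRNA pool 3, left 2 genes lower in place of 4, and leaving out control library 2 gave 4 that rose in place of 2. Over all genes tested, 1619 of 16103 fell without control library 1 and 1878 of 16076 without the E4F1 shRNA pool 3. Without control library 2, 2833 of 16092 rose.

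Of 24 further SRF or MRTF targets tested, 4 rose and 7 fell, with a median of −0.04, beside 14.4% of all genes tested in each direction. The share that rose was again near that of all genes. MICAL2, an actin oxidase that acts on MRTF signalling, rose to 323 ± 0.288 CPM in E4F1 shRNA cells, against 205 ± 6.27 CPM in control shRNA cells (SD, n = 3 each; log2 0.66, edgeR adjusted p = 7.15e-08). Caldesmon, CALD1, rose (0.25) and the fibronectin receptor subunit gene ITGA5 fell (−0.36).

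With the cell cycle score as a further term, 2 of the YAP targets were lower in place of 8, and the Hippo list had 4 higher and 0 lower. Over all 15765 genes tested, 461 were higher in that fit in place of 2274, and 324 were lower in place of 2276. Of the genes just named, TEAD1, LATS1, PTPN14, F3, CCDC80, PHACTR2 and MICAL2 kept their calls in that fit, as did TPM4. The other called ones did not, and neither did CNN3, TAGLN2, MYL12B, MYL6B, MYH10, MYH14 and ANKRD2. Among these, the log2 fold change of some stayed close to that without the score while the SE grew, as for TAGLN2 (−0.22), MYL6B (−0.20), ANKRD2 (0.67) and CALD1 (0.22). For others it was much nearer 0, as for FHL2 (−0.06), ITGA5 (−0.09) and FRMD6 (−0.10).

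**Figure D5:**
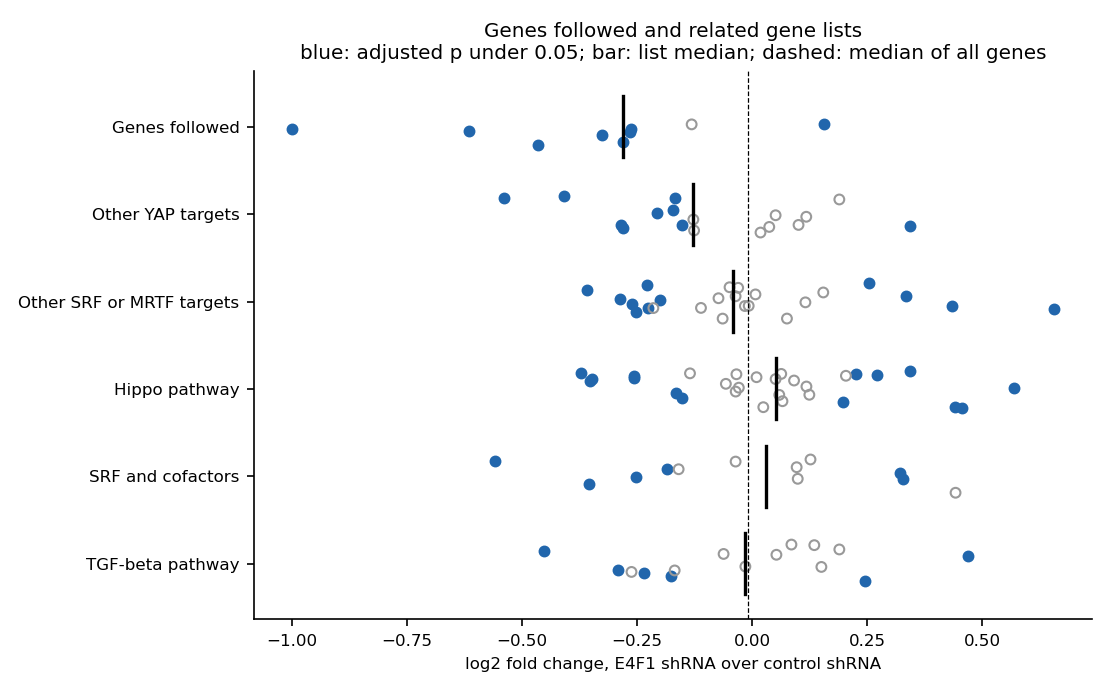
Log2 fold changes (E4F1 shRNA over control shRNA) of the tested genes in 6 lists, with blue points for adjusted p under 0.05, black bars at each list's median and a dashed line at the median of all genes tested. The median is −0.28 for the 9 genes followed here, −0.13 for other YAP targets and 0.05 for the Hippo pathway.

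By the same 6 libraries, the 5 genes with the pattern nearest to that of ACTA2 were taken, with no cutoff on the distance. Likeness was the root mean square difference of log2 CPM, each gene centred on its own mean over the 6 libraries, among 10072 protein-coding genes of average log2 CPM 3 or more. VGF was nearest with a difference of 0.0614, followed by KIF1A at 0.0934, MYLK at 0.102, CTXN1 at 0.104 and GSG1 at 0.106. They were chosen for likeness to a gene that fell, so their own falls follow from the choice. VGF, a secreted neuropeptide precursor, was at 49.7 ± 2.39 CPM in E4F1 shRNA and 93.3 ± 13.6 CPM in control shRNA cells (SD, n = 3 each). MYLK, myosin light chain kinase, was at 68.8 ± 2.49 CPM in E4F1 shRNA and 140 ± 18.8 CPM in control shRNA cells (SD, n = 3 each), a log2 fold change of −1.03 (edgeR adjusted p = 6.34e-08) that kept its call in all 15 alternative fits.

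A 7-base run in 3′ untranslated regions, CTTATCT, had been noticed earlier in these data for the genes that rise with it. Of tested genes with such a region, 623 of 1689 with CTTATCT rose and 140 fell, against 1556 and 1890 of 11404 without it. None of the 9 tested genes followed here held it in an annotated transcript, and most of all tested genes did not hold it either. The longest annotated region of these 9 ran from 149 bases in ACTA2 to 3493 bases in TPM1. Length was not taken into account in any of these counts. TEAD1, LATS1, TPM4, PHACTR2, PTPN14 and CALD1, which rose, each held it in at least 1 transcript, as did TGFBR1. So did ELK3, FHL2 and TGFBR2, which fell, and WWTR1, which was not called. It was in no transcript of TPM1, MICAL2, AMOT, MRTFB, TEAD2, MYH10, CNN3, ANKRD2 and LTBP1, which also rose. In the Hippo list, 4 of 6 genes with the run rose and none fell, against 3 that rose and 7 that fell of 23 without it. The run was picked from these same data, so the split over all genes follows from that choice. The Hippo genes are among those genes, so their split is no separate evidence. The part of this run in the levels was not tested.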

How the data were processed

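Polyadenylated RNA from 6 U2OS libraries was sequenced. The authors deposited raw read counts per gene for each library, and bcl2fastq 2.20, STAR 2.5.1b and genome build GRCh38 are named per the submitters' processing notes. No source used here names the annotation release. The reverse-strand column was used. Lines for reads in no gene (27.1% to 31.7% of each table) stayed out of library sizes and tests. Symbols came from identifiers without version, and coordinates from GENCODE release 29 on GRCh38 (57881 of 58219 identifiers matched).

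Counts were filtered with filterByExpr, scaled with TMM and compared by edgeR 4.0.16 (R 4.3.3) with group alone in the model, two-sided, with Benjamini-Hochberg adjustment over 15765 genes and a threshold of 0.05. Intervals are 95% intervals from that fit. The p-values measure the spread between 3 pools per group. An exact permutation test of 1 value cannot go below p = 0.1 in this design. Alternatives were DESeq2 1.42.0, limma-voom (limma 3.58.1), other scalings and filters, a replicate block, counts ignoring strand, a cell cycle score and leaving out each library. The fit was also run on simulated counts in which every gene had the same dispersion. The spread in the real libraries differs between genes, so that run does not measure error rates here. The 10 genes and the lists were chosen with earlier results of these data known. Named genes are E4F1, the 10 genes, their family relatives, the YAP, TEAD, SRF and MRTF genes, up to 4 called genes per list with the smallest adjusted p, and the 5 genes most like ACTA2. A list of further genes is not reported here. Promoter sequences are from RefSeq (GRCh38.p14).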

Additional observations from a re-analysis of the deposited data

How the results depend on the processing

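The number of genes changed, 4550 in all, with 2274 higher and 2276 lower, came to 785, 461 and 324 with the cell cycle score as a further term. In that fit 0 of the 10 genes followed here passed, in place of 8 (0 higher, 0 lower), and TAGLN turned to 0.10 and the marker SPP1 to 0.16 on the log2 scale. With counts ignoring strand 0 of them rose, in place of 1. Leaving out 1 library gave 3031 to 5370 genes changed, 1605 to 2833 higher and 1419 to 2537 lower. Of the 10 genes, 6 to 8 then changed, 0 to 1 higher and 6 to 7 lower. ACTA2, CNN1, MYL9, TPM2, CCN2 and ANKRD1 kept direction and call in all fits but the one with the score. CCN1 passed in none. The replicate number as a block gave 4865 changed genes and 8 of the 10. Same-numbered libraries deviated together by r = 0.007, 0.047 and 0.048 over 15765 genes, so the numbers were not taken as pairs, and not every library correlated best with its own number. Depth limits ACTG2, which stayed under the filter.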

Other observations

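Genes of the TGF-beta pathway, which drives contractile gene expression in many mesenchymal cells, were called in both directions. Of 15 tested, 2 rose and 4 fell, with a median log2 fold change of −0.02, beside 14.4% of all genes tested in each direction. The share of the pathway that rose was near that of all genes. The receptor genes moved apart: TGFBR1 rose to 74.6 ± 1.93 CPM in E4F1 shRNA cells, against 53.9 ± 2.06 CPM in control shRNA cells (log2 0.47), and TGFBR2 fell to 108 ± 2.99 CPM, against 148 ± 10.8 CPM (log2 −0.45; SD, n = 3 each). Both kept their call in all 15 alternative fits. The ligand gene TGFB1 fell (−0.29) and LTBP1, a latent ligand binding protein gene, rose (0.25), and both lost their call with the cell cycle score in the fit (edgeR adjusted p = 0.0548 and 0.178). Their log2 fold changes hardly moved there, at −0.29 for TGFB1 and 0.23 for LTBP1, while the SE grew. Leaving out control library 1, or the E4F1 shRNA pool 1 or pool 2, left 2 genes of the pathway lower in place of 4. Over all genes tested, 1619 of 16103, 1419 of 16138 and 1426 of 16155 fell in these fits, in the same order.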
